A study of Ovis aries with 14 samples.

Results

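FOS, JUNB, JUND and EGR1 are immediate early genes, and their signal was followed in the hypothalamus of fetal sheep after triclosan infusion. Every array probe named for one of these genes was included, whatever its signal. This gave 4 of the 964 genes with a symbol on the array and 9 of 15008 probes: 4 for FOS, 2 for JUNB, 1 for JUND and 2 for EGR1. All 9 probes passed the filter on dim signal, and 13740 probes were tested in all.

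Immediate early genes are transcribed within minutes of a stimulus such as neuronal firing, a hormone or a growth factor, without the need for new protein synthesis. FOS pairs with a JUN protein through a leucine zipper to form the transcription factor AP-1, whereas JUNB and JUND can also pair with each other; EGR1 is a zinc finger factor that binds GC-rich DNA on its own. FOS and EGR1 transcripts are short-lived, and in the hypothalamus FOS is widely used as a marker of recently active neurons, while JUND is the member of the JUN family that is typically present without a stimulus.

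Triclosan is an antimicrobial compound of soaps and other consumer products. RNA of the whole fetal hypothalamus, from fetuses of about 130 days, was labelled with Cy3 and hybridised singly to Agilent ovine 15k arrays, 14 of them in all. In the direct arm, catheterised fetuses received vehicle (fetal vehicle, n = 4) or triclosan at 250 µg/day (fetal triclosan, n = 4) into a vein for 2 days. In the indirect arm the ewe received vehicle (maternal vehicle, 3 deposited arrays) or triclosan at 100 µg/kg/day (maternal triclosan, n = 3), likewise for 2 days. The doses of the arms are on different scales, and the labels do not say what the vehicle was, which sex the fetuses were, or whether each array stands for its own pregnancy. P-values therefore measure the spread between these samples, and the small number of arrays limits the precision. Maternal vehicle replicate 3 was left out, because its signal equalled 0.6 times replicate 1 plus 0.4 times replicate 2 at all 15744 spots, which left 13 arrays and n = 2 for maternal vehicle. In bulk tissue, fewer cells of a type and less RNA per cell cannot be told apart.

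The probes are 60 bases long, and the sequences show which stretch of each message was read and which probes are near copies. They are written 5′ to 3′ as the scanner files give them, and capitals mark the bases shared between probes of the same gene. The array prefix A_70_ of each name is left out.
FOS P001561: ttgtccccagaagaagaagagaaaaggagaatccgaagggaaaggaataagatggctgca
FOS P016317: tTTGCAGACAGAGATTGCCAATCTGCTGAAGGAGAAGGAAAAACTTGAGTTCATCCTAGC
FOS P016316: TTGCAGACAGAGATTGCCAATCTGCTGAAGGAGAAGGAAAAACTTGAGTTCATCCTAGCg
JUND P041716: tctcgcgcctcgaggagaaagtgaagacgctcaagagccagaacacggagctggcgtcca
EGR1 P041731: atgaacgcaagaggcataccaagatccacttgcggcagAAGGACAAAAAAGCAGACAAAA
EGR1 P041732: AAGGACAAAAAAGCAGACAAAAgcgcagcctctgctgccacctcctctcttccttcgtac
FOS P016317 and P016316 share 59 of their 60 bases and are 1 measurement in practice. They start at bases 656 and 657 of the sheep FOS transcript, in the stretch that codes for the leucine zipper, and P001561 starts at base 516, in the stretch that codes for the basic, DNA-contacting region. The fourth FOS probe, P026731, was designed on an expressed sequence tag and shares no more than 7 bases in a row with the other FOS probes. The JUND probe also lies in the code for a leucine zipper. The EGR1 probes share 22 bases, which lie just after the zinc finger code. The JUNB probes, P041671 and P041672, were designed on 1 expressed sequence tag and share 59 bases, so they too are near copies. The longest run that any of the 9 probes shared with a probe of another gene was 16 bases, and binding of transcripts of related genes was not tested.

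Signal is given as log2 of the processed intensity minus the 75th percentile of the array, so 0 is the level of a spot brighter than 75% of the spots of its array. A probe is called when the limma test, two-sided and adjusted by the Benjamini-Hochberg method over all probes, gave an adjusted p under 0.05. Levels are compared between arrays for 1 probe, never between probes. All member spots were well above background, unsaturated and without outlier marks, except those of EGR1 P041731, which was too dim on 5 of the arrays.

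Under direct exposure 3 of 4 FOS probes and the JUND probe were called lower after triclosan, and no member was called higher. Of the 9 probes, 5 were called lower: 3 of 4 for FOS, 1 of 2 for JUNB and the single JUND probe. Over the whole array 18.1% of probes were called in this comparison, and 11.3% were called lower. The split of 935 higher and 1555 lower probes became 2174 and 946 after median scaling, under which the 3 called FOS probes and JUND kept their calls. The median difference of the 9 probes was −0.55, and that of all 13740 probes −0.09, both as log2 of triclosan over vehicle. At 5 member probes every triclosan array lay under every vehicle array, which held for 12.6% of all probes. In both counts of 5, the near copies FOS P016317 and P016316 count as separate probes. The whole-array count itself moved with single libraries: 2490 probes were called with all 13 arrays, 1654 without fetal vehicle replicate 1 and 1223 without fetal vehicle replicate 3.

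**Figure D1:**
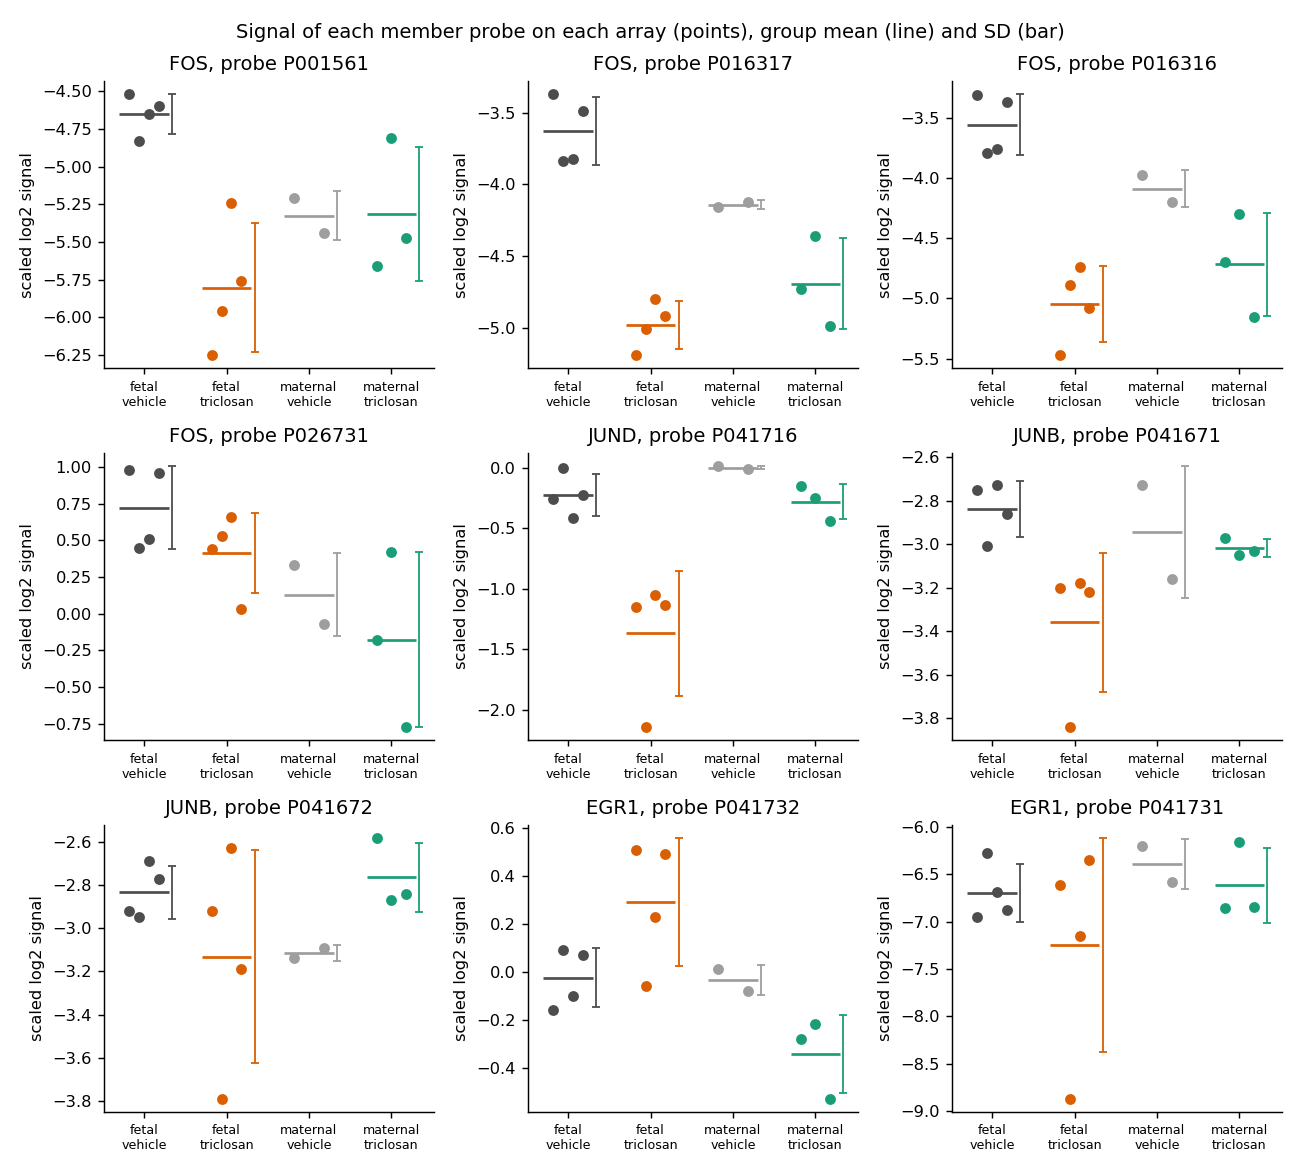
Scaled log2 signal (vertical axes, different in each panel) of the 9 probes on the 13 arrays used, 1 panel per probe; points are arrays, lines are group means and bars are SD. At 3 FOS probes, JUND and JUNB P041671 every fetal triclosan array lies under every fetal vehicle array, and fetal triclosan replicate 2 stands apart at JUND, at −2.14.

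FOS, the inducible partner of AP-1, gave a scaled signal at P016317 of −3.37, −3.84, −3.82 and −3.49 on the fetal vehicle arrays. The fetal triclosan arrays read −5.19, −5.01, −4.80 and −4.92. The highest triclosan array was thus lower than the lowest vehicle array by far more than the spread within either group, whose means were −3.63 ± 0.24 and −4.98 ± 0.16 (SD, n = 4 each). In processed intensity, before any scaling between arrays, the vehicle arrays ran from 113.3 to 177.3 and the triclosan arrays from 43.81 to 58.42. The difference was −1.35 (SE 0.16), a 2.54-fold fall, with an adjusted p of 0.00203 in limma. The near copy P016316 fell by 1.49 (SE 0.21, limma adjusted p = 0.00303).

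The basic-region probe P001561 gave the same direction from another stretch of the FOS message. Its fetal vehicle arrays read −4.52, −4.83, −4.65 and −4.60. Its fetal triclosan arrays read −6.25, −5.96, −5.24 and −5.76. The groups did not overlap, the triclosan arrays were the more scattered, and the signal fell by 1.15 (SE 0.23, limma adjusted p = 0.00769). The size of the FOS change depends on the background correction: with normexp correction and quantile normalisation it was −0.42 for P001561, −0.67 for P016317 and −0.72 for P016316, and in the authors' values −0.62, −0.92 and −0.99, each still called.

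The fourth FOS probe did not pass the test. At P026731 the fetal vehicle arrays read 0.98, 0.45, 0.51 and 0.96, and the fetal triclosan arrays 0.44, 0.53, 0.66 and 0.03. The groups overlapped, and the difference was −0.31 with a 95% interval from −0.85 to 0.23 (limma adjusted p = 0.420). The files give no position in the FOS message for this probe relative to the other 3.

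Whether the FOS probes changed unequally was tested on the difference between 2 probes within each array, which drops the scaling between arrays. The signal of P016317 minus that of P026731 was −4.36 ± 0.07 on fetal vehicle arrays and −5.39 ± 0.30 on fetal triclosan arrays (SD, n = 4 each), an unequal change of −1.04. It was −0.84 for P001561 and −1.18 for P016316, each against P026731. Each of these 3 gave an exact permutation p of 0.02857, the smallest that 4 against 4 arrays allow, and an adjusted p of 0.07619 over the 8 probe pairs of FOS, JUNB and EGR1, so that no pair passed the threshold. Among the other FOS pairs the unequal change ran from 0.14 to 0.33, with exact permutation p from 0.0857 to 0.286. These pair differences were taken from the processed signal alone, and their size depends on the background correction. With normexp correction and quantile normalisation the direct change was −0.29 at P026731, against −0.42 at P001561, −0.67 at P016317 and −0.72 at P016316. In the authors' values it was −0.28, against −0.62, −0.92 and −0.99 in the same order. Over 18 other RefSeq transcripts with probes at least 300 bases apart, the signal nearer the start minus that nearer the end differed between triclosan and vehicle by −0.01 (exact permutation p = 0.971, two-sided).

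**Figure D2:**
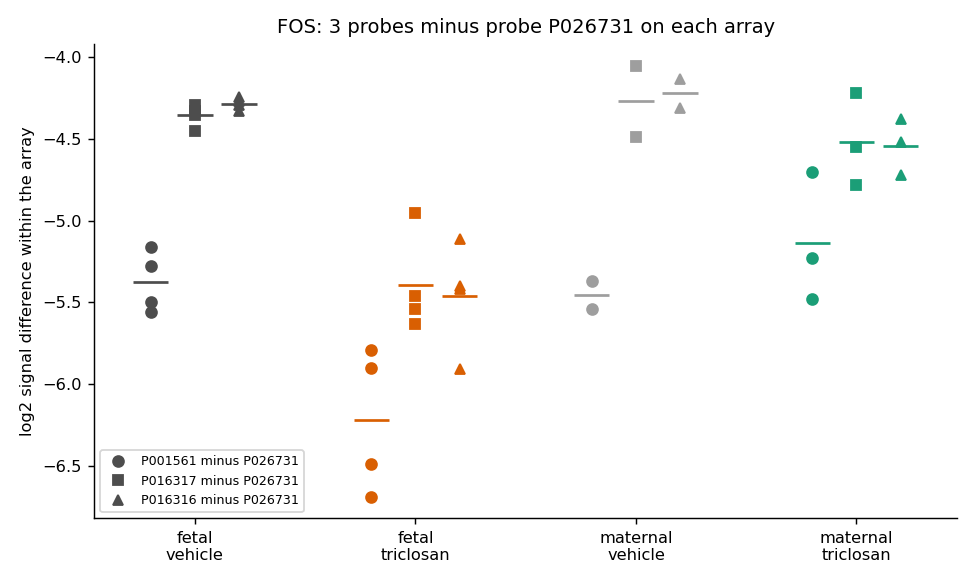
Log2 signal of each of 3 FOS probes minus that of FOS P026731 on the same array (vertical axis), by group; points are arrays and lines are group means. The fetal triclosan points lie under the fetal vehicle points at all 3, with means of −5.39 against −4.36 for P016317; the height of such a difference reflects 2 probes and is no level.

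JUND, the constitutive JUN partner of AP-1, read −0.26, 0.00, −0.42 and −0.23 on the fetal vehicle arrays. On the fetal triclosan arrays it read −1.15, −2.14, −1.05 and −1.13. The groups were apart, with replicate 2 much the lowest of the triclosan arrays. The signal fell by 1.14 (SE 0.22), or 2.20-fold, with a limma adjusted p of 0.00691, and without that replicate the difference was −0.88 (limma adjusted p = 0.00535). Over 13 processing alternatives the JUND difference ran from −1.22 to −0.92, called in each.

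JUNB, an AP-1 subunit that is itself induced by stimuli, gave a call at only 1 of 2 near-identical probes. P041671 read −2.75, −3.01, −2.73 and −2.86 on fetal vehicle arrays. On fetal triclosan arrays it read −3.20, −3.84, −3.18 and −3.22. These groups were apart, and the signal fell by 0.52 (SE 0.16, limma adjusted p = 0.0438). This call was lost in 7 of 13 processing alternatives, in the authors' values among them (−0.27, limma adjusted p = 0.221), and without fetal triclosan replicate 2 the difference was −0.36 (limma adjusted p = 0.0711).

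At the other JUNB probe, P041672, the fetal vehicle arrays read −2.92, −2.95, −2.69 and −2.77, and the fetal triclosan arrays −2.92, −3.79, −2.63 and −3.19. The groups overlapped, and the difference was −0.30, with a 95% interval from −0.75 to 0.15 (limma adjusted p = 0.339). The unequal change between the JUNB probes was 0.22 (exact permutation p = 0.257), so the 2 probes were not told apart.

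EGR1, the zinc finger member, was not lower at the probe that was well above background on every array. P041732 read −0.16, 0.09, −0.10 and 0.07 on fetal vehicle arrays, and 0.51, −0.06, 0.23 and 0.49 on fetal triclosan arrays. Replicate 2 was inside the vehicle range and the other 3 triclosan arrays were above it. The difference was 0.32 with a 95% interval from 0.01 to 0.63, and its adjusted p in limma was 0.143. It was called higher after median scaling (0.54, limma adjusted p = 0.0273) and without fetal triclosan replicate 2 (0.44, limma adjusted p = 0.0393).

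The other EGR1 probe, P041731, was near the background. It was well above background on 1 of 4 fetal triclosan arrays, 3 of 4 fetal vehicle arrays, both maternal vehicle arrays and 2 of 3 maternal triclosan arrays. Its fetal vehicle signals were −6.95, −6.27, −6.69 and −6.88, and its fetal triclosan signals −6.61, −8.87, −7.15 and −6.35. The groups overlapped, and the difference of −0.55 had a 95% interval from −1.54 to 0.44 (limma adjusted p = 0.432).

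**Figure D3:**
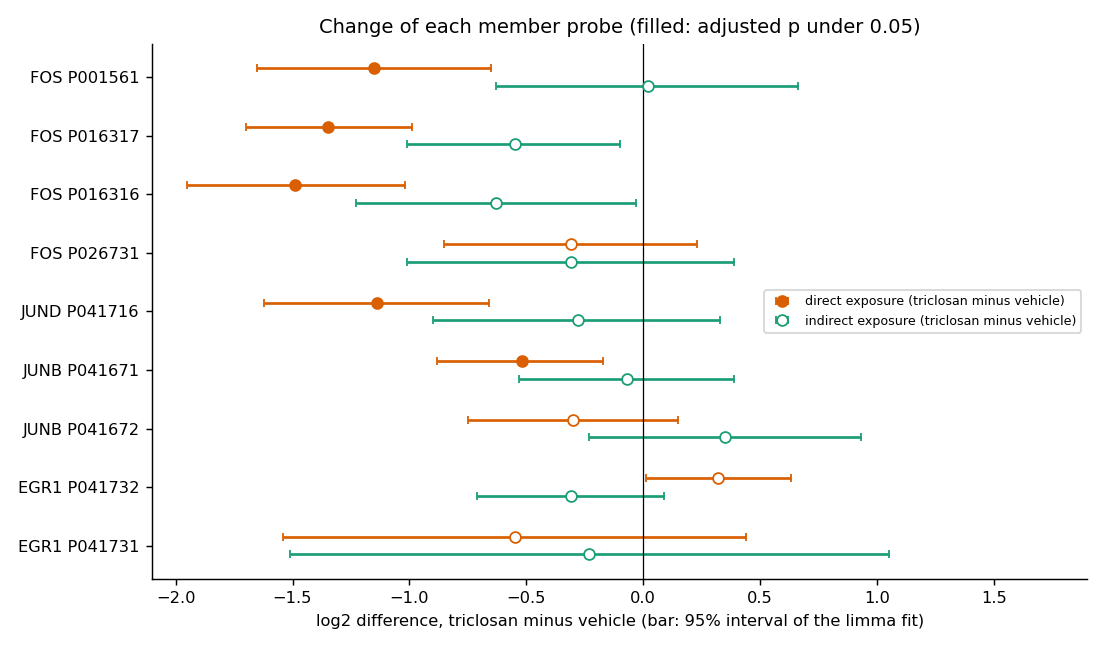
Log2 difference of triclosan minus vehicle (horizontal axis) for each probe under direct (orange) and indirect (green) exposure; bars are 95% intervals of the limma fit and filled points have an adjusted p under 0.05. The 5 filled points are all in the direct arm and below 0, from −1.49 to −0.52.

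Several measured properties of the arrays moved with the direct groups. The median processed intensity of an array was 315.4 to 380.0 in fetal vehicle and 236.1 to 307.4 in fetal triclosan, without overlap. Dim probes tended to be lower after triclosan and bright probes higher: over 10 classes of probe brightness with 1374 probes each, the median difference went from −0.29 in the dimmest class to 0.24 in the brightest. Relative to the median of its own class, FOS P016316 was at −1.23, P016317 at −1.09 and P001561 at −0.88, and 27, 41 and 58 of 1374 probes of like brightness were as low or lower. Counted from the dimmest, P001561 was in class 2, P016317 and P016316 were in class 3, and P026731, which was not called, was in class 8. There P026731 was at −0.36 relative to its class, and 236 of 1374 probes were as low or lower. JUND was at −1.07 relative to its class, class 7, in which 24 of 1374 probes were as low or lower. JUNB P041671 was at −0.25 relative to its class, and 385 of 1374 probes there were as low or lower. The part of the signal level in these results was not tested beyond this.

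**Figure D4:**
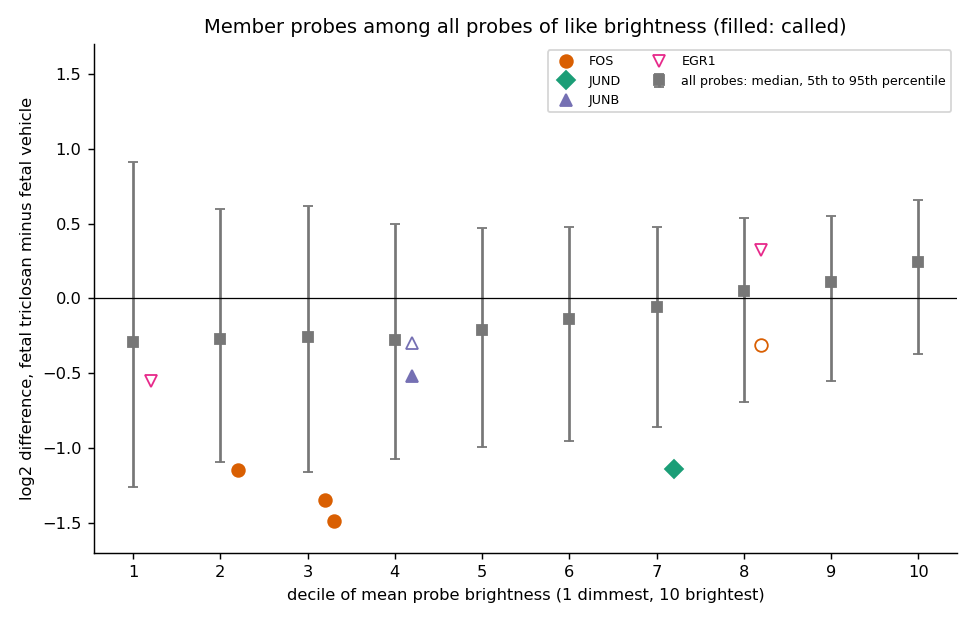
Log2 difference of fetal triclosan minus fetal vehicle (vertical axis) against the class of mean probe brightness (horizontal axis, deciles, 1 dimmest). Grey squares and bars are the median and the 5th to 95th percentile of all probes of that class. Coloured points are the member probes (filled when called). The 3 called FOS probes and JUND lie under the bars, while FOS P026731, JUNB and EGR1 lie within them.

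Slide and scan day were checked as batches. Slides 1 to 3 held both direct groups, and fetal triclosan replicate 4 was alone on its slide and scan day. At FOS P016317 triclosan minus vehicle was −1.82, −1.17 and −1.14 within slides 1, 2 and 3. At JUND the within-slide differences were −0.88, −2.14 and −0.73, and at JUNB P041671 −0.45, −0.83 and −0.38. All 5 called probes were lower on each of the 3 slides. EGR1 P041732 was 0.67, −0.15 and 0.25, with no common sign. With slide as a block the same 5 probes were called. In fits that left out 1 array, fetal triclosan replicate 4 in its turn, FOS P016317 ran from −1.42 to −1.26 and stayed called.

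Markers of the tissue and of other cells were measured on the same arrays. Of 16 hypothalamic neuron markers 10 were measured, among them the peptides SST and OXT, whose mean scaled signal on fetal vehicle arrays was 3.15 and 0.95. None of the 10 was called in the direct arm in limma, but 5 had an unadjusted p under 0.05 and their median difference was 0.98, with GHRH at 2.32 (limma adjusted p = 0.101), GNRH1 at 1.61 (0.126) and SST at 1.14 (0.148). The sum of the 10 was 9.19 to 19.8 in fetal vehicle and 9.50 to 56.1 in fetal triclosan, in units of the 75th percentile of the array. Of 7 endothelial markers 5 were measured and 3 were called lower in the direct arm: CD93 (−2.1), KDR (−1.57) and FLT1 (−1.19). PECAM1 and TIE1 differed by −0.26 and 0.06 without a call. The summed signal of the 5 was 0.812 to 1.16 in fetal vehicle and 0.561 to 0.763 in fetal triclosan. Of 5 erythroid markers 3 were measured and 1 was called higher, with sums of 4.28 to 12.5 and 11.8 to 23.4. Among the other lists, the astrocyte marker FGFR3 fell by 1.61 (limma adjusted p = 0.0107, 1 of 4 measured called). The astrocyte markers without a call, GFAP, EAAT2 and AQP4, differed by −0.63, −0.30 and 0.13. The microglia marker ITGAM fell by 0.95 (limma adjusted p = 0.0418, 1 of 3), whereas FCER1G and CD14 differed by 0.46 and −0.03. The meningeal marker PTGDS rose by 0.55 (limma adjusted p = 0.0302, 1 of 4), whereas COL3A1, COL1A2 and DCN differed by −0.72, −0.42 and 0.30. Sums in fetal vehicle and fetal triclosan were 61.6 to 77.3 and 64.2 to 91.3 for astrocytes, 0.651 to 0.990 and 0.894 to 1.09 for microglia, and 38.5 to 63.1 and 59.2 to 77.1 for meninges. None of the 2 choroid plexus and 4 pituitary markers measured was called in limma, and none of them had an unadjusted p under 0.05 in the direct arm. The endothelial sums did not overlap between the direct groups, and those of the other lists did; the part of all these markers in the FOS and JUND differences was not tested.

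Under indirect exposure, when the ewe was infused, no member was called, and neither was any other probe (0.0% of 13740 in limma), although 1324 probes had an unadjusted p under 0.05. FOS P016317 read −4.16 and −4.12 on maternal vehicle arrays and −4.73, −4.36 and −4.99 on maternal triclosan arrays. The groups were apart, and the difference was −0.55 (95% interval −1.01 to −0.10, limma adjusted p = 0.464). FOS P016316 differed by −0.63 (limma adjusted p = 0.514), P026731 by −0.31 and P001561 by 0.02, so the FOS probes did not share a direction beyond their intervals.

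JUND read 0.01 and −0.01 on maternal vehicle arrays and −0.15, −0.25 and −0.44 on maternal triclosan arrays, a difference of −0.28 (95% interval −0.90 to 0.33, limma adjusted p = 0.737). EGR1 P041732 read 0.01 and −0.08 with vehicle and −0.28, −0.22 and −0.53 with triclosan, a difference of −0.31 (95% interval −0.71 to 0.09, limma adjusted p = 0.594). Both pairs of groups were apart without passing the test. In all, 4 of 9 member probes had every maternal triclosan array under every maternal vehicle array, which held for 19.1% of all probes with only 3 and 2 arrays. The near copies FOS P016317 and P016316 count as separate probes here too. JUNB P041672 read −3.14 and −3.09 with vehicle and −2.58, −2.87 and −2.84 with triclosan, so here the triclosan arrays were the higher ones, by 0.35 (95% interval −0.23 to 0.93, limma adjusted p = 0.663). Its near copy P041671 differed by −0.07.

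The difference between the arms was tested itself, as the direct minus the indirect change, and no probe of the array was called (0.0% in limma; 2013 had an unadjusted p under 0.05). This difference was −1.17 for FOS P001561 (95% interval −1.98 to −0.36, limma adjusted p = 0.254). For FOS P016317, P016316 and P026731 it was −0.79, −0.86 and 0.00 (limma adjusted p = 0.263, 0.311 and 0.999). For JUND it was −0.86 (95% interval −1.64 to −0.08, limma adjusted p = 0.317). For EGR1 P041732 it was 0.63 (95% interval 0.12 to 1.14, limma adjusted p = 0.288). The direct and indirect responses of the members were therefore not shown to differ, nor to be alike.

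The vehicle groups give the levels without triclosan, and no member was called between them. For FOS, maternal vehicle minus fetal vehicle was −0.68 at P001561, −0.51 at P016317, −0.53 at P016316 and −0.59 at P026731, each with a limma adjusted p of 0.999. Both maternal vehicle arrays lay under all 4 fetal vehicle arrays at these 4 probes and at JUNB P041672, 5 of 9 member probes, against 7.85% of all probes (near copies count as separate probes). In limma 0.0% of probes were called between the vehicle groups, and 449 had an unadjusted p under 0.05. JUND differed by 0.23 and EGR1 P041732 by −0.01.

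Over the 4 groups, the mean level of FOS P016317 was highest in fetal vehicle (−3.63 ± 0.24, n = 4), then maternal vehicle (−4.14 ± 0.03, n = 2), maternal triclosan (−4.69 ± 0.32, n = 3) and fetal triclosan (−4.98 ± 0.16, n = 4; SD). Each of the first 3 groups was apart from the one before it, and the triclosan groups overlapped. P001561 had the order fetal vehicle (−4.65 ± 0.13), maternal triclosan (−5.31 ± 0.45), maternal vehicle (−5.33 ± 0.16) and fetal triclosan (−5.80 ± 0.43), with overlap between all neighbours. P026731 ran from fetal vehicle (0.73 ± 0.29) over fetal triclosan (0.42 ± 0.27) and maternal vehicle (0.13 ± 0.29) to maternal triclosan (−0.18 ± 0.60), again with overlap between all neighbours. JUND ran from maternal vehicle (0.00 ± 0.02) over fetal vehicle (−0.23 ± 0.17) and maternal triclosan (−0.28 ± 0.14) to fetal triclosan (−1.37 ± 0.52), and only fetal triclosan was apart from its neighbour. EGR1 P041732 ran from fetal triclosan (0.29 ± 0.27) over both vehicle groups (−0.03 ± 0.12 fetal, −0.03 ± 0.06 maternal) to maternal triclosan (−0.34 ± 0.16), and only maternal triclosan was apart from its neighbour. JUNB P041671 was lowest in fetal triclosan (−3.36 ± 0.32), which was apart from maternal triclosan (−3.02 ± 0.04).

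Other genes of the pathway were read from lists of known members. Of 903 named genes tested, 8.97% were called lower and 5.98% higher in the direct arm, with a median difference of −0.10. Among 44 other immediate early genes 6 were measured and none was called in limma; 2 had an unadjusted p under 0.05, and the median was −0.08. The lowest p belonged to RHOB, a small GTPase (−0.70, limma adjusted p = 0.0515), and to CCN1, a secreted matrix protein (−0.63, limma adjusted p = 0.149). MYC differed by 0.09 and PTGS2, the inducible cyclooxygenase, by 0.56 without a call.

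Upstream signalling genes were 5 measured of 40, and none was called in limma (2 had an unadjusted p under 0.05; median −0.44). EGFR, a growth factor receptor, differed by −0.76 (limma adjusted p = 0.0695) and GRIN1, a glutamate receptor subunit, by −0.67 (limma adjusted p = 0.0826). Among AP-1 partners and regulators 9 of 29 were measured, and only NR3C1, the glucocorticoid receptor, which can bind to AP-1, was called; it rose by 0.69 (SE 0.16, limma adjusted p = 0.0154).

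Of 43 known AP-1 and EGR1 targets 22 were measured. IL6, a cytokine, differed by 0.37 and MMP2, a matrix protease, by −0.45, each with a limma adjusted p of 0.0772; the median of the 22 was −0.27. Both measured heat shock genes were called lower in the direct arm: HSP70.1, the inducible chaperone, by 1.48 (SE 0.26, limma adjusted p = 0.00521) and HSP90AA1 by 0.80 (SE 0.13, limma adjusted p = 0.00430). No gene of these lists was called under indirect exposure, where no probe of the array was. In that arm HSP90AA1 differed by −0.92 (SE 0.17, limma adjusted p = 0.246) and HSP70.1 by −0.72 (SE 0.33, limma adjusted p = 0.524).

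The genes whose signal was most like that of a member over the 13 arrays are given as a description, since arrays share their scaling and their groups. JUND was most like SLC25A38 (Pearson r = 0.95), SLC66A2 (r = 0.95) and HSP70.1 (r = 0.94), which after removal of the group means were 0.80, 0.89 and 0.74. Its lowest r was with YWHAE (−0.88, and −0.47 after removal of the group means). The Spearman rank correlations of JUND with these genes were 0.79, 0.85, 0.80 and −0.55, in the order named. EGR1 P041732 was most like PDXK and SRP14 (r = 0.91 each) and CALM2 (r = 0.86). JUNB P041672 was most like HCRTR1, an orexin receptor (r = 0.93), PAC1R and AQP8 (r = 0.90 each), and least like ACVR2A (r = −0.86). By Spearman rank correlation these were 0.95, 0.89, 0.84 and −0.56. The highest values of FOS P026731 were smaller, with MMP13 (r = 0.63), MAST (r = 0.62) and CHIA (r = 0.61), and its lowest was with ApoA1 (r = −0.70). Among the members, FOS P016317 and P001561 gave r = 0.89, and FOS P016317 and JUND r = 0.64, which was 0.12 within groups. JUND and EGR1 P041732 gave r = −0.39 over all arrays (Spearman −0.25) and 0.80 within groups. Fetal triclosan replicate 2 was the lowest array of its group at both probes (−2.14 and −0.06). Its part in the value within groups was not tested.

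**Figure D5:**
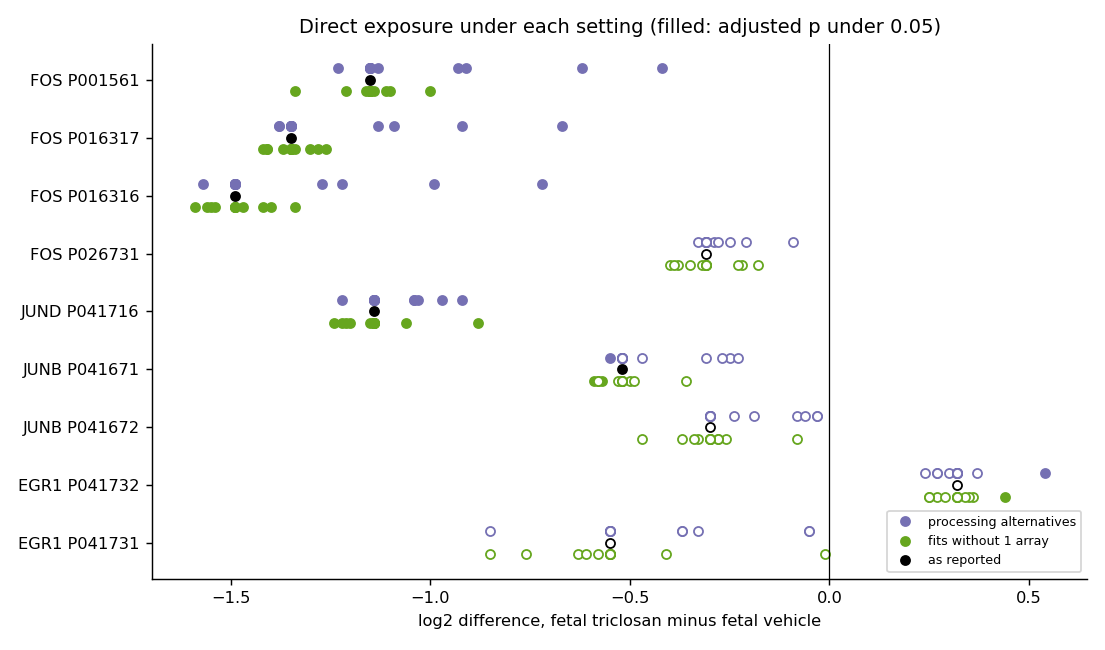
Log2 difference of fetal triclosan minus fetal vehicle (horizontal axis) of each probe as reported (black), under the processing alternatives (violet) and in fits without 1 array (green); filled points have an adjusted p under 0.05. The 3 FOS probes and JUND are filled in all 26 alternatives, JUNB P041671 in 10 and EGR1 P041732 in 2.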

How the data were processed

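The deposited scanner files give intensity per spot; per the file headers, Agilent Feature Extraction 10.1.1.1 subtracted the background and detrended each array, which yields the processed signal, with no scaling between arrays. A value table that the authors deposited was read as log2. Its column medians were 8.78 to 8.80, and its slopes against the log2 signal were 0.811 to 0.901. Every column correlated best with the log2 signal of the array it is labelled for (r of 0.988 or more). That bears on the labels and not on the scale, since the linear signal was not compared. The direction of the table is that of the signal, and its exact scaling and centring stay unknown. The submitters' processing notes also list limma, for a purpose they do not give.

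The log2 processed signal minus the 75th percentile of each array was used. Control spots and outlier-marked spots were left out, spots of a probe were averaged, and probes well above background on at least 3 arrays were kept (13740 probes, 250 missing values). A model of 4 group means was fitted in limma 3.58.1 under R 4.3.3 (degrees of freedom: 9 residual, 2.36 prior). Probe pairs were compared by exact permutation in scipy 1.17.1. Both tests were tested on simulated data. Plots were made with matplotlib 3.10.9.

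Probe names came from the files and RefSeq; all 9 member probes carry their symbol in the files. Array medians of processed intensity were 236.1 to 380.0, and 83.3% to 90.1% of spots were well above background. Alternatives covered scaling, background correction, the authors' values, filters, outlier marks, variance prior, array weights, slide, replicate number, all 14 arrays, the 2 groups alone, and each array left out. For each list, up to 4 called genes or otherwise the 2 with the smallest p were named; MYC and PTGS2 were added after their values were seen. For likeness, the 3 named genes with the highest and the 1 with the lowest Pearson r to the brightest probe of each member were taken. Some genes that these rules name are not reported here. The members and lists were chosen with earlier results of these data known.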

Additional observations from a re-analysis of the deposited data

Results flagged for a closer look

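In 2 of 18 group and probe combinations of 4 arrays, 1 array stood apart by Dixon's test, which flags about 1 in 20 such groups by chance. Both were fetal triclosan replicate 2: JUND P041716 at −2.14, with a gap of 0.912 of the group's range, and JUNB P041671 at −3.84, with a gap of 0.935 of the range (critical value 0.829). EGR1 P041731 on the same array was at −8.87, the lowest of its group, without being well above background.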

How the results depend on the processing

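The 4 called probes of FOS and JUND were called lower in all 26 alternatives, and the number of member probes called was 4 or 5 of 9 in each. JUNB P041671 was no longer called after median scaling (−0.31), quantile normalisation (−0.25), normexp correction (−0.23), in the authors' values (−0.27), without a filter on dim probes (−0.52), with array weights (−0.47) or with only the 2 groups (−0.52). Leaving out 1 array gave −1.34 to −1.0 for FOS P001561, −1.42 to −1.26 for P016317, −1.59 to −1.34 for P016316, −1.24 to −0.88 for JUND and −0.59 to −0.36 for JUNB P041671, which lost its call in 9 of 13 such fits.

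Over all probes, the 2490 direct calls became 1586 after quantile normalisation and 1339 with only the 2 groups, and 1223 to 2955 without 1 array. Median scaling turned the 935 higher and 1555 lower calls into 2174 and 946, with an all-probe median of 0.13 in place of −0.09. Indirect calls were 356 with array weights, 12 with all 14 arrays and 0 to 2 without 1 array. Calls between the arms were 1 after quantile normalisation, 4 with all 14 arrays and 0 to 12 without 1 array, and calls between the vehicle groups were 0 to 2. The cause was not tested. Without a maternal vehicle array, the lone array is assumed to vary like the other groups.

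Same-numbered arrays of the direct arm did not all deviate together (correlations 0.130, 0.118, 0.264 and −0.170), so the labels' numbers were not taken as pairs. Arrays numbered 1, 2 and 3 also shared a slide, and those numbered 4 did not. Fetal vehicle replicate 4 and fetal triclosan replicate 3, on the same slide, gave a correlation of 0.140. With the replicate block 2824 probes were called directly, and FOS P016317 (−1.35) and JUND (−1.14) kept their calls. The dim EGR1 probe P041731 limits what can be said of EGR1.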
